A study of Mus musculus with 3 samples.

Results

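The drug efflux ABC transporters were examined on 3 arrays as a set of 10 genes, namely Abcb1a, Abcb1b, Abcc1, Abcc2, Abcc3, Abcc4, Abcc5, Abcg2, Abca1 and Abcg1. They were taken by name, through the RefSeq accession of each probe, from 20660 named genes on the array. Each of the 10 had at least 1 probe, for 13 probes in all, because Abcc5 had 4. The brightest probe was well above background on all 3 arrays for 7 members, as it was for 13805 of the named genes. Those of Abcc2, Abca1 and Abcg1 were well above background on none of the 3 arrays.

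ABC transporters use the energy of ATP to move molecules across membranes, and the members of this set carry them out of the cell. Abcb1a and Abcb1b are the rodent P-glycoproteins, pumps for bulky hydrophobic drugs, and Abcg2 (the breast cancer resistance protein) exports drugs, dyes and urate. The Abcc genes code for the multidrug resistance-associated proteins, which export organic anions and conjugates with glutathione, glucuronate or sulfate. Abca1 and Abcg1 pass cholesterol and phospholipids to lipoproteins and are classic targets of the sterol receptors LXR. Receptors and factors that sense foreign compounds, such as PXR, CAR, AhR and NRF2, are known to act on several of these genes.

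NIH3T3 cells, a line of mouse embryonic fibroblasts labelled as wild type, were grown to confluence in medium with serum and collected after 24 h. One culture was untreated (None), one received 20 µM AR7 and one received 20 µM BMS614. AR7 is an atypical RARα ligand that activates chaperone-mediated autophagy, and BMS614 is a RARα antagonist. Both compounds were dissolved in DMSO, and no source says that the None culture received it, so that the solvent and the compounds cannot be told apart. Each condition has 1 array and no replicate culture, so that differences are given without any test between conditions. The 3 arrays, on one slide, were one-colour Agilent arrays with Cy3-labelled RNA of whole cultures, in which fewer cells expressing a gene and less of its RNA per cell cannot be told apart. Intensities were background corrected and quantile normalized by RMA and are given as log2 values. The levels of different genes are not compared, since each probe has its own response.

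The error available is that between spots. It was read from 267 probes that each array carries 10 times, as the SD of the difference between 2 arrays over spots of 1 probe. At the lowest signals this SD was 0.43 for AR7 against None, and at the highest 0.05. Below, "SD" without further words is this value at the signal of the gene, divided by the root of the number of its spots. This SD does not hold the variation between cultures. The share of probes well above background was 55.4% on the None array, 61.3% on the AR7 array and 61.8% on the BMS614 array, and the 75th percentile of spot intensity before normalization was 692, 780.5 and 909. Whether these gaps in signal play a part in the differences below was not tested. Fibroblast markers were well above background on all arrays for 8 of 8 genes, from 5.26 to 18.27 on the log2 scale (Col3a1 was the dim one). Of 8 markers of epithelial, endothelial, blood and liver cells with a probe (Cd68 had none that was named), Cdh1 and Pecam1 were well above background on all arrays, at 5.59 to 5.76 and 7.36 to 7.51. Ptprc was so on 2 arrays, Cdh5 on 1, and Epcam, Krt18, Alb and Ttr on none.

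**Figure D1:**
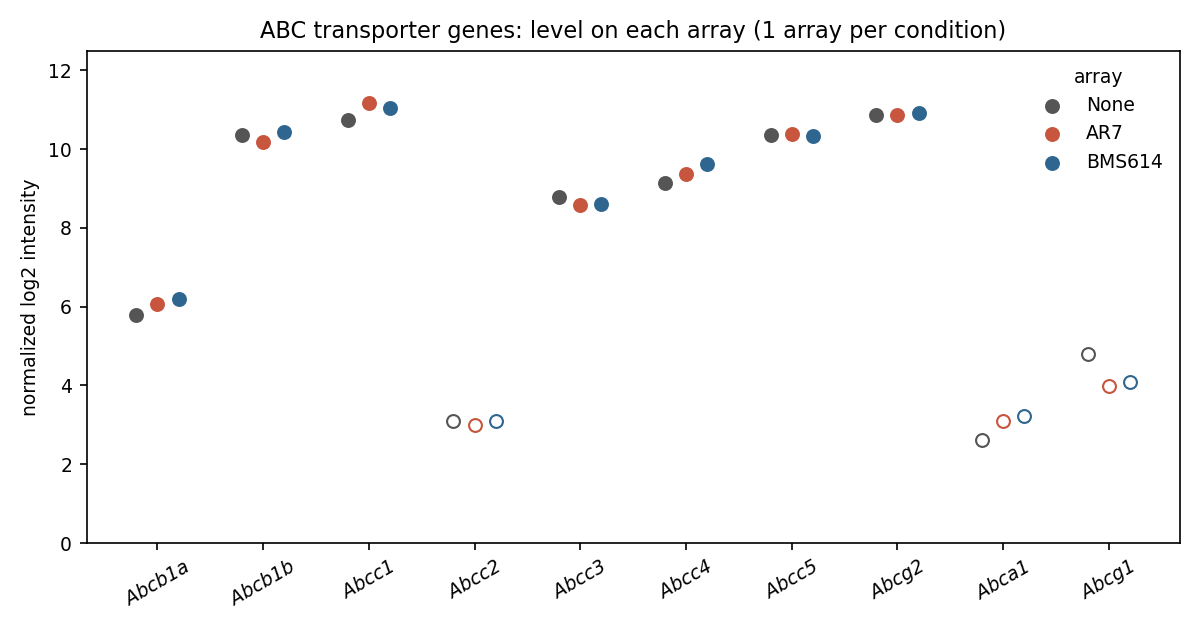
Normalized log2 intensity (vertical axis) of the brightest probe of each of the 10 members on the None, AR7 and BMS614 arrays, 1 point per array. Open points mark the 3 genes that were well above background on none of the arrays, and heights of different genes are not comparable. The largest steps within a filled gene are those of Abcc1, from 10.75 to 11.17, and Abcc4, from 9.15 to 9.62.

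The promoters of 3 members are shown. Abcb1a and Abcb1b code for pumps of the same kind from separate promoters. Their differences from None had opposite signs with AR7, but that of Abcb1a was within 2 SD. Abcc4 was higher than None with both compounds by more than 2 SD, as was Abcc1. Of the 10 members, 7 were in the RefSeq promoter table of GRCm38.p6, while Abcc1, Abcc3 and Abcg1 were not. The 250 bases before the start are given 5′ to 3′ on the strand of the gene, at chr5:8566841-8567090 (plus strand) for Abcb1a, chr5:8797897-8798146 (plus strand) for Abcb1b and chr14:118706220-118706469 (minus strand) for the first of 2 listed starts of Abcc4. Capitals mark matches, on either strand, to the GC box GGGCGG, the CCAAT box, the E-box CACGTG, the antioxidant response core TGACNNNGC, the AhR core GCGTG and the nuclear receptor half-site AGGTCA.
Abcb1a: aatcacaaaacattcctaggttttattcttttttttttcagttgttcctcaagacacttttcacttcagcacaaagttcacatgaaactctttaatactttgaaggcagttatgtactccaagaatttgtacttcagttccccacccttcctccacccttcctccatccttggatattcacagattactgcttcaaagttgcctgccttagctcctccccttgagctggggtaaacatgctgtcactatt
Abcb1b: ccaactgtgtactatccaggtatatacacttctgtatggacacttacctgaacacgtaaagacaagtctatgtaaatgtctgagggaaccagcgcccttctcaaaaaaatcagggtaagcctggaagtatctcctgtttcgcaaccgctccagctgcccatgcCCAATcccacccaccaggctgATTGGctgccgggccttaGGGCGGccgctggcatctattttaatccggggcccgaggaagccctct
Abcc4: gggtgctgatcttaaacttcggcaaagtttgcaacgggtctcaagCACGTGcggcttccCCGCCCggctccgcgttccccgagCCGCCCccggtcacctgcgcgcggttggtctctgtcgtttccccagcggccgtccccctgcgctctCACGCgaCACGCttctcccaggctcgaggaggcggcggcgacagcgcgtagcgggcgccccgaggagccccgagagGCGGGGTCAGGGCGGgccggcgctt

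The Abcb1a window held none of these motifs, and 40.4% of its bases were G or C. That of Abcb1b held 1 GC box and 2 CCAAT boxes, with 52.8% G or C. The Abcc4 window, with 72.0% G or C, held 3 GC boxes, 1 E-box, 2 AhR cores and 1 antioxidant response core, the last of which (on the opposite strand) stands directly before a GC box. No matches overlap in these 3 windows. Over 32851 windows of the same length in the table, 32.7% held a GC box, 33.8% a CCAAT box, 6.02% the E-box, 10.2% the antioxidant response core, 28.2% the AhR core and 14% the half-site. A match describes the letters and is not evidence of binding.

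Among the multidrug resistance-associated proteins, Abcc1 (MRP1, an exporter of glutathione conjugates and leukotriene C4) and Abcc4 (MRP4, an exporter of cyclic nucleotides, prostaglandins and urate) were higher on both treated arrays. The value of Abcc1 was 10.75 on the None array, 11.17 on the AR7 array and 11.04 on the BMS614 array. It was therefore 1.34-fold higher with AR7 (0.42 on the log2 scale, SD 0.06) and 1.23-fold higher with BMS614 (0.30, SD 0.07). The value of Abcc4 was 9.15, 9.37 and 9.62 in the same order. It was 1.16-fold higher with AR7 (0.21, SD 0.09) and 1.38-fold higher with BMS614 (0.47, SD 0.10). AR7 thus had the highest Abcc1 array and BMS614 the highest Abcc4 array. Set directly against each other, the AR7 array exceeded the BMS614 array by 0.12 for Abcc1 (SD 0.06) and differed by -0.25 for Abcc4 (SD 0.09). The gap between these values was 0.38. It is a description only, since the pair was chosen from its values, as the highest and lowest of the 7 members in this comparison.

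Abcc3 (MRP3, which exports glucuronides and bile salts at the basolateral side of liver and gut cells) was lower on both treated arrays. Its value was 8.79 without additions, 8.58 with AR7 and 8.61 with BMS614. The differences of -0.20 (SD 0.09) and -0.17 (SD 0.10) lay on either side of 2 SD, and AR7 and BMS614 differed by -0.03 (SD 0.09). Abcc2 (MRP2, the canalicular exporter of bilirubin glucuronide) lay at 3.09, 2.99 and 3.09, values that are not above background and give no fold.

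Abcc5 (MRP5, another exporter of cyclic nucleotides) could be measured most closely, since its brightest probe was printed 10 times. Over the 10 spots the mean was 10.37 ± 0.16 (SD, n = 10 spots) without additions, 10.38 ± 0.13 with AR7 and 10.34 ± 0.12 with BMS614. The spots ran from 10.21 to 10.66 on the None array (median 10.30), from 10.22 to 10.57 on the AR7 array (median 10.36) and from 10.22 to 10.53 on the BMS614 array (median 10.32), so that the arrays overlapped. Taken spot by spot, the difference from None was 0.02 with AR7 (SD 0.06 over spots) and -0.03 with BMS614 (SD 0.06). It was above 0 at 6 and 4 of the 10 positions. Between AR7 and BMS614 it was 0.05 (SD 0.03), above 0 at 9 of 10 positions, which is a 1.03-fold difference. For a mean of 10 spots the SD of repeated spots was 0.02 in each comparison, which the AR7 against BMS614 difference exceeded by more than 2 times and the differences from None did not.

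The other 3 Abcc5 probes, printed once each and dimmer, spread more widely. Of the 4 probes, 2 carry the accession NM_013790 and 2 carry NM_176839, another transcript of the gene. With AR7 the single probes differed from None by -0.05, -0.16 and 0.11, all within 2 SD. With BMS614 they differed by 0.20 (SD 0.10), -0.34 (SD 0.12) and -0.14 (SD 0.20). The first 2 of these were past 2 SD in opposite directions (2.05 and -2.80 SD), although both probes carry NM_176839. Between AR7 and BMS614 the 3 probes differed by -0.25 (SD 0.09), 0.18 (SD 0.12) and 0.24 (SD 0.21), so that the one past 2 SD had the opposite sign to the probe of 10 spots. As the mean over all its probes, Abcc5 differed from None by -0.02 with AR7 and -0.08 with BMS614.

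**Figure D2:**
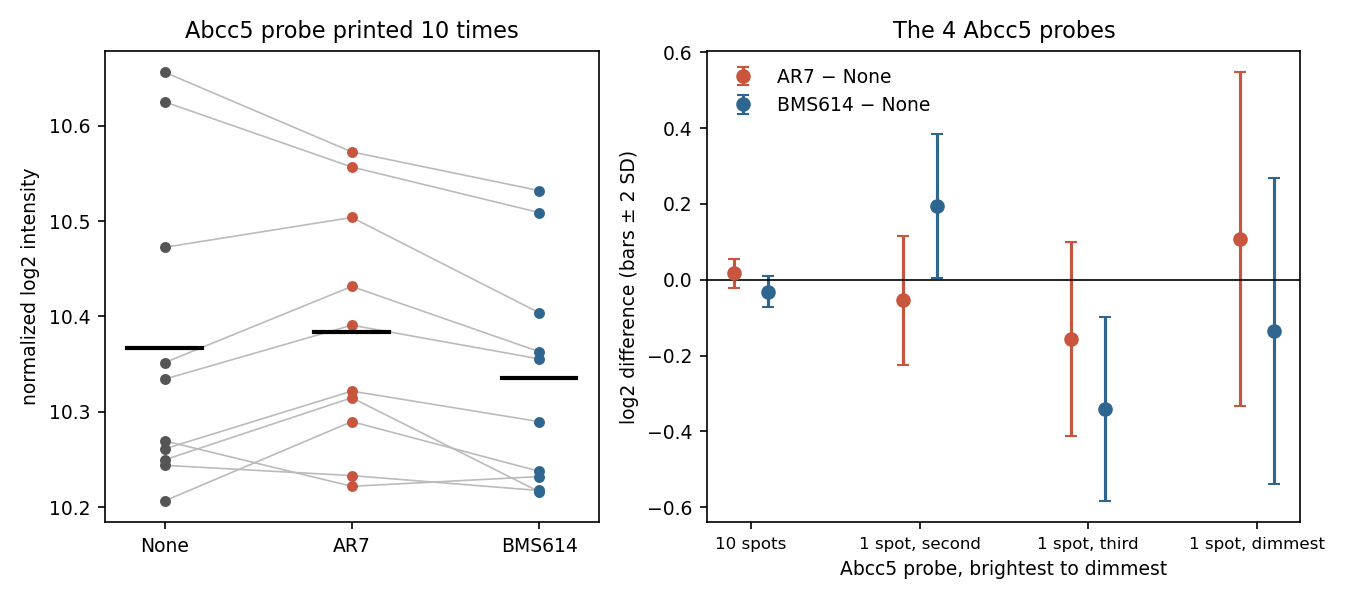
Left, normalized log2 intensity of the 10 spots of the brightest Abcc5 probe on the None, AR7 and BMS614 arrays, with lines joining spots at the same position and bars at the means of 10.37, 10.38 and 10.34. Right, log2 difference from None for the 4 Abcc5 probes with bars of 2 SD of repeated spots, where the probe of 10 spots has the shortest bars and the single probes run from -0.34 to 0.20.

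The P-glycoprotein genes differed most from None in different samples, Abcb1b with AR7 and Abcb1a with BMS614. Abcb1b was at 10.36 without additions, 10.18 with AR7 and 10.42 with BMS614. It was lower with AR7 (-0.18, SD 0.07, 1.13-fold) and within 2 SD of None with BMS614 (0.07, SD 0.07). The AR7 array was 1.18-fold below the BMS614 array for this gene (-0.24, SD 0.06). Abcb1a was much dimmer, at 5.79, 6.07 and 6.19. Both treated arrays were above the None array, by 0.28 with AR7 (SD 0.22) and 0.40 with BMS614 (SD 0.20). Neither value passed 2 SD, though the latter did under 3 of the other normalizations. Over 7 other ways of processing, the value with BMS614 ran from 0.19 to 0.49. The AR7 against BMS614 difference was -0.13 for Abcb1a (SD 0.21), of the same sign as for Abcb1b, and the gap between these values, 0.12, was within its SD of 0.22. How far each probe takes up RNA of the other P-glycoprotein gene was not tested.

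Abcg2, the breast cancer resistance protein, was within 2 SD in every comparison. It was at 10.87 without additions, 10.86 with AR7 and 10.92 with BMS614, differences of -0.02 (SD 0.06) and 0.05 (SD 0.07). AR7 and BMS614 differed by -0.06 (SD 0.06). Such values do not show that the cultures were alike.

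The probes of the sterol exporters did not pass the scanner software's call of well above background on any of the 3 arrays. Abca1 lay at 2.61 without additions, 3.096 with AR7 and 3.22 with BMS614, and Abcg1 at 4.80, 3.99 and 4.10. The lowest level of any probe that passed it was 4.50 on the None array, 3.45 on the AR7 array and 3.67 on the BMS614 array. Abca1 lay below these levels, whereas Abcg1 lay above them and failed the call of the scanner software for its own spot. No fold is given for either gene, and transcripts below the reach of the probes may be present.

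**Figure D3:**
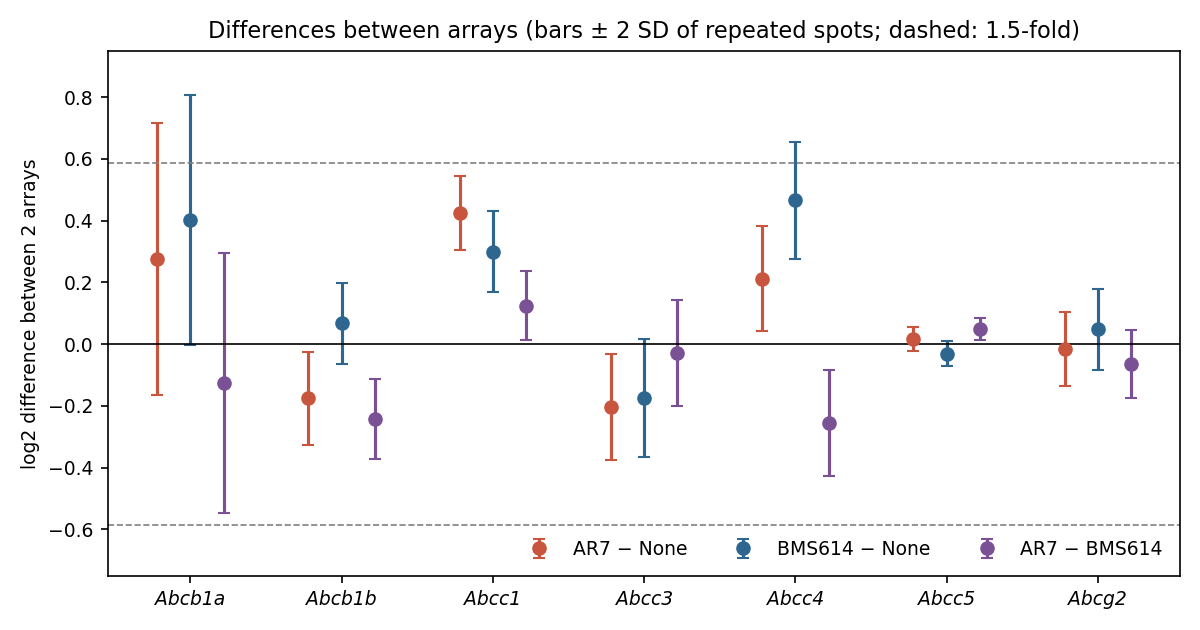
Log2 difference between arrays (vertical axis) for the 7 members well above background, for AR7 minus None, BMS614 minus None and AR7 minus BMS614, with bars of 2 SD of repeated spots and dashed lines at 1.5-fold. All values lie between -0.25 and 0.47, inside the dashed lines, and only Abcc1 and Abcc4 have bars clear of 0 for both compounds.

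The median absolute difference of the 7 members was 0.20 for AR7 against None, 0.17 for BMS614 against None and 0.12 for AR7 against BMS614, beside 0.08, 0.09 and 0.09 over all 13805 named genes. Of the members 0 reached 1.5-fold in any comparison. Of all genes 2.22% did so for AR7 against None, 2.69% for BMS614 against None and 1.77% for AR7 against BMS614, and 0 of 7 is near these shares. With AR7, 2 of 7 members were higher than None by more than 2 SD (Abcc1 and Abcc4) and 2 lower (Abcb1b and Abcc3), against 9.67% and 8.98% of all genes. With BMS614, 2 were higher (Abcc1 and Abcc4) and 0 lower, against 13.9% and 12.3%. Between AR7 and BMS614, 2 were higher on the AR7 array (Abcc1 and Abcc5) and 2 lower (Abcb1b and Abcc4), against 14.1% and 14.4%. With the probes of a gene averaged, Abcc5 no longer passed 2 SD between the compounds and the other 3 did. With 7 genes such counts are a description only. The median over the 7 members was 0.02 for AR7 and 0.07 for BMS614, and -0.06 for AR7 against BMS614, beside medians of -0.003, 0.0008 and -0.001 over all genes. Abcc1 with AR7, at 0.42, and Abcc4 with BMS614, at 0.47, lay just above the range that holds the central 95% of all genes, which ended at 0.40 and 0.43. Both compounds are set against the same None array, so that an error of that array enters both differences.

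Members that passed 2 SD against None kept their sign under other processing. Over 7 other ways of normalizing or summarizing the arrays, Abcc1 ran from 0.38 to 0.43 with AR7 and from 0.25 to 0.31 with BMS614. Abcc4 ran from 0.17 to 0.24 and from 0.38 to 0.47. Abcb1b with AR7 ran from -0.25 to -0.16 and Abcc3 with AR7 from -0.26 to -0.16. At 3 SD, Abcc1 was the one member left for AR7 against None, Abcc1 and Abcc4 remained for BMS614 against None, and Abcb1b for AR7 against BMS614. The share of all genes past 3 SD was not counted, so these are a description only.

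**Figure D4:**
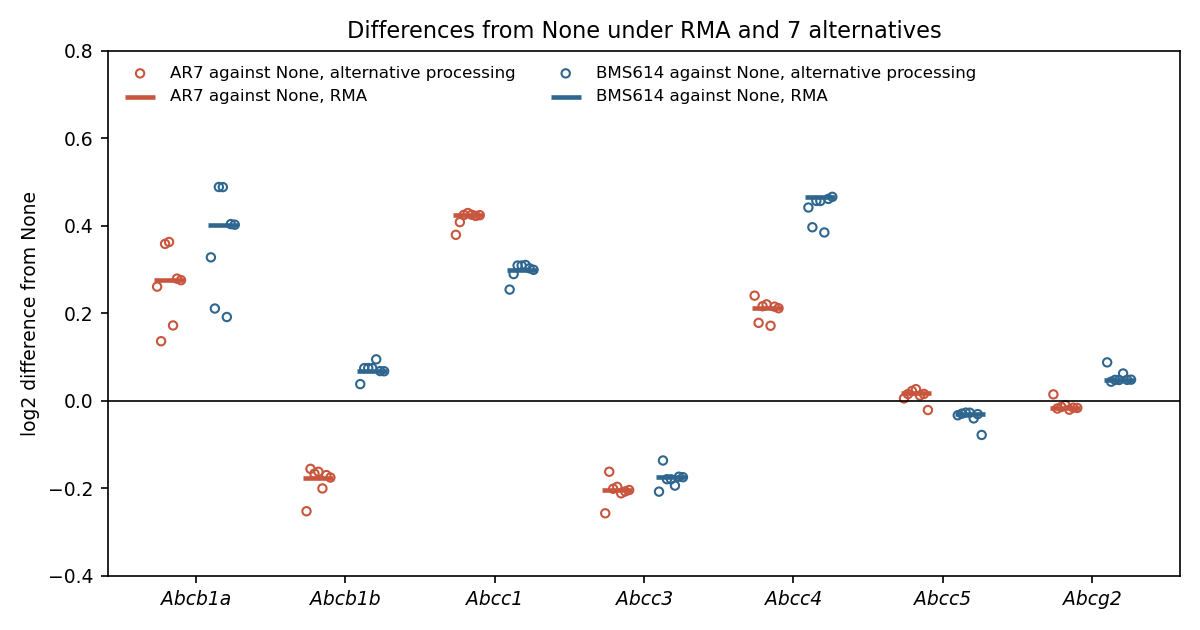
Log2 difference from None (vertical axis) of the 7 members well above background, with AR7 and with BMS614, under RMA (bars) and under 7 alternatives (open circles). Abcc1 and Abcc4 stay above 0 and Abcc3 below 0 with both compounds, while Abcb1a with BMS614 has the widest range, from 0.19 to 0.49.

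The rest of the ABC family was read from a list of 43 genes, of which 42 had a probe and 25 were well above background on all arrays. Their median difference from None was -0.02 with AR7 and -0.03 with BMS614. With AR7, 3 were higher by more than 2 SD and 3 lower, from -0.36 for Abcg4 (SD 0.13) to 0.37 for Abca8b (SD 0.09). With BMS614, 3 were higher and 2 lower. The highest was Abce1 (a ribosome recycling factor with ABC domains and no membrane-spanning part) at 0.25 (SD 0.05). Of all genes, 9.67% were higher and 8.98% lower with AR7, and 13.9% and 12.3% with BMS614, so that the counts of this list are near or below these shares. Abcb4, the phosphatidylcholine flippase closest in kind to the P-glycoproteins, was at 10.39 without additions, 10.26 with AR7 and 10.46 with BMS614. Its difference of -0.12 with AR7 (SD 0.06) had the same sign as that of Abcb1b and the opposite sign to that of Abcb1a (0.28, SD 0.22).

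Drug uptake carriers of the Slc and Slco families, which bring in many substrates that the members export, numbered 16, with 11 well above background. With AR7, 1 was higher and 1 lower by more than 2 SD, and with BMS614 2 and 1. Of all genes, 9.67% were higher and 8.98% lower with AR7, and 13.9% and 12.3% with BMS614. The counts of the carriers are near these shares. Slco1a4 (an organic anion transporter), read by a dim probe, differed by -0.69 with AR7 (SD 0.43) and 1.04 with BMS614 (SD 0.35). Slc22a18, at 0.18 (SD 0.09), was the highest with AR7, and Slco1a5, at -0.25 (SD 0.12), the lowest with BMS614.

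Of 17 transcription factors and partners known to act on efflux genes, 15 were well above background. With AR7, 1 was higher by more than 2 SD (Keap1, which holds NRF2 in check, 0.11, SD 0.06) and 1 lower. With BMS614, 3 were higher and 2 lower, with Hif1a the highest at 0.25 (SD 0.07). Keap1 was among those lower with BMS614, at -0.16 (SD 0.05). Of all genes, 9.67% were higher and 8.98% lower with AR7, and 13.9% and 12.3% with BMS614. Nr1i3, which codes for the receptor CAR, was the lowest with both compounds, at -0.64 with AR7 (SD 0.13) and -0.82 with BMS614 (SD 0.12). Its second probe, not well above background on all arrays, gave -0.27 and -0.14. Nfe2l2, the gene of NRF2, differed by 0.02 and -0.01.

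LXR receptors and target genes other than the sterol exporters numbered 11, with 9 well above background and medians of 0.01 with AR7 and -0.02 with BMS614. Of these 9, 0 were higher by more than 2 SD with either compound. Of all genes, 9.67% were so with AR7 and 13.9% with BMS614, and 0 of 9 is near these shares. The brighter probe of the target Mylip differed by -0.03 with AR7 and 0.03 with BMS614. Its dimmer probe, also well above background on all arrays, gave -0.54 (SD 0.22) and -0.49 (SD 0.20), both past 2 SD. Nr1h3, which codes for the receptor LXRα, was outside the 9, since its brighter probe was well above background on 1 array only, at 6.46 with AR7 against 4.09 without additions and 4.08 with BMS614. Its other probe differed from None by 0.27 and 0.18 and was not well above background on all arrays. Apoe, an apolipoprotein of the particles that take up exported cholesterol, was lower with AR7 (-0.12, SD 0.03) and with BMS614 (-0.27, SD 0.03). Its probe was printed 10 times, and these SDs are for a mean of 10 spots. The highest were Lpl with AR7 (0.12, SD 0.07) and Scd1 with BMS614 (0.06, SD 0.05), while the lowest with BMS614 was the dim Srebf1 at -0.40 (SD 0.35). The dimmer Lpl probe, also well above background on all arrays, had the opposite sign with AR7 (-0.21, SD 0.22).

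The last list joins enzymes of glutathione supply and conjugation, which make conjugates that MRP pumps export, with other NRF2 targets that form no conjugates (Nqo1, Hmox1, Txnrd1 and Srxn1, enzymes of quinone, heme, thioredoxin and peroxiredoxin chemistry). Of 13 well above background, 10 were higher with AR7 by more than 2 SD and 0 lower, with a median of 0.30, from -0.09 for Ugt1a6a (SD 0.43) to 0.63 for Gsta4 and 0.90 for Nqo1. With BMS614, 2 were higher and 1 lower, with a median of 0.05, from -0.59 for Ugt1a6a (SD 0.35) to 0.21 for Nqo1 (SD 0.07). Between the compounds, 11 were higher on the AR7 array and 0 lower, with a median of 0.28. Of all genes, 9.67% were higher with AR7, 13.9% with BMS614 and 14.1% on the AR7 array against the BMS614 array. The list was drawn up with the rise of NRF2 targets on the AR7 array known, so that its counts are no independent evidence.

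**Figure D5:**
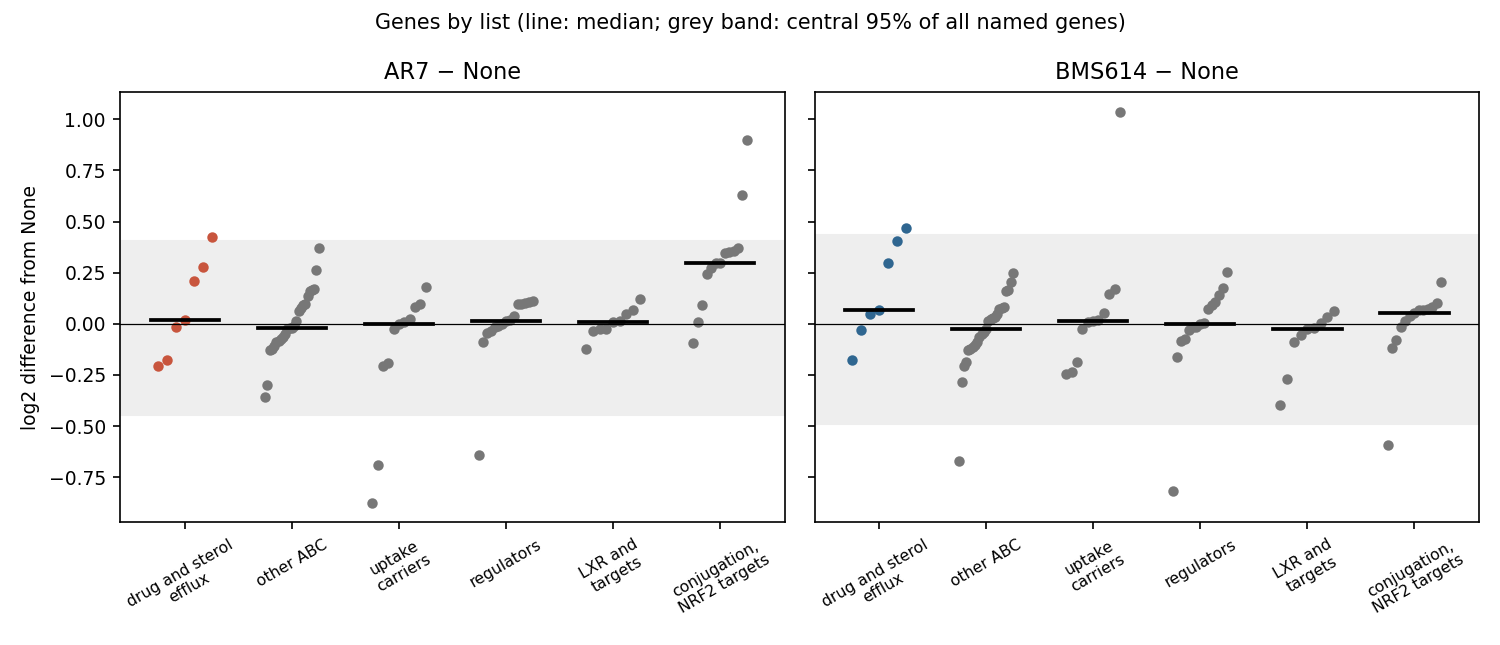
Log2 difference from None (vertical axis) with AR7 (left) and BMS614 (right) for genes well above background on all arrays, 1 point per gene, by list, with the median as a black line. The grey band holds the central 95% of all 13805 named genes. The efflux members (coloured) centre at 0.02 and 0.07, and the joint list of glutathione supply, conjugation and other NRF2 target genes at 0.30 and 0.05.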

How the data were processed

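Total RNA of NIH3T3 cells was hybridized by the authors to 1 one-colour Agilent Mouse array per condition (None, AR7, BMS614), grouped here by the treatment in the labels. The authors deposited the intensity of each spot (Feature Extraction 10.7.3.1), not normalized between arrays. They also deposited a table of intensity on a linear scale, with values below 0 and with 75th percentiles of 598.8 to 599.9. The submitters' notes name RMA and oligo, but that table is not on a log scale, and how it was made is not given in the sources used here.

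Each array's median spot intensity was corrected here with the RMA convolution background, quantile normalized over the 3 arrays and put on the log2 scale (R 4.3.3, limma 3.58.1, Python 3.11.15, numpy 2.4.6, pandas 2.3.3, scipy 1.17.1, matplotlib 3.10.9). Without a column of mean intensity, the median was used. Control spots and those with an outlier mark were removed, and spots of a probe were averaged. Of 55681 probes, 27235 were named through RefSeq accessions and a GRCm38.p6 gene table, used for names only. A gene was represented by its brightest probe, and required to be well above background on all 3 arrays. A difference was described as at least 1.5-fold, or past 2 SD of repeated spots in 10 bins of signal (divided by the root of the number of spots). The number of arrays limits the precision, and no p-value is given.

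The genes named were all members, listed genes past 1.5-fold, and for each compound the largest rise and fall of each list, with the cell type markers and the 3 ABC genes nearest to the member that differed most from None. A few listed genes that this rule covers are not reported here, though counts and medians include them. Abcb4 and Nfe2l2 were chosen after their values were seen. Members and lists were chosen with earlier results of these data known. The counting was tested on simulated data with planted changes larger than any difference of the members. That test does not bear on differences of the size reported here. Alternatives were other backgrounds, scalings, filters, thresholds and probe summaries, and the deposited table with values under 16 set to 16.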

Additional observations from a re-analysis of the deposited data

How the results depend on the processing

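No paired analysis was possible because the 3 conditions have a single array each, and for the same reason no array could be left out and the slide, shared by all, could not be a block. Under every alternative that kept the 1.5-fold threshold and the filter on dim probes, 0 members reached 1.5-fold in any comparison. Without a filter on dim probes, 1 of 10 members did so with AR7 (Abcg1) and 2 with BMS614 (Abca1 and Abcg1), none of them well above background on any array. At the lower fold threshold of 0.32 on the log2 scale the counts were 1 with AR7, 2 with BMS614 and 0 between the compounds, and at 2-fold they were 0. The shares of all genes at these fold thresholds were not counted, so that these counts are a description only. The count past 2 SD for BMS614 against None, 2, was 4 with processed signals scaled by the 75th percentile (Abcc3 and Abcc5 joined Abcc1 and Abcc4), and the cause was not tested. At 3 SD, where no share of all genes was counted, the 4 members for AR7 against None became 1 and the 4 for AR7 against BMS614 became 1. The deposited table has no repeated spots, so that no count past 2 SD could be made from it. Scaling on the spike-in controls moved the median of all genes by 0.10 for AR7 and 0.23 for BMS614 against None and by -0.12 between the compounds, and values under it are relative to that median. The median over the members with AR7, 0.02, was -0.02 when a gene's probes were averaged. With BMS614, Abcc4 exceeded Abcb1a under RMA (0.47 and 0.40), but Abcb1a exceeded Abcc4 under 75th percentile scaling of RMA values (0.49 and 0.46) and spike-in scaling (0.49 and 0.46). All other counts and medians stayed within 1.5 times or within 1 SD of the reported ones.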

Other observations

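Among the 25 other ABC genes well above background, the 3 whose values over the 3 arrays lay nearest to those of Abcc4 were Abce1, Abca5 and Abcd4, at Euclidean distances of 0.18, 0.21 and 0.22 between mean-centred log2 values. With 3 arrays, 1 per condition, such a likeness is a description of these arrays.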
